A study of Homo sapiens with 12 samples.

Results

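The genes described here encode chaperones and quality control proteins of the endoplasmic reticulum (ER) that are induced by the unfolded protein response. They were chosen by name as HSPA5, HSP90B1, SDF2L1, DNAJB9, DNAJB11, PDIA4, PDIA6, HERPUD1, CALR and XBP1, which are 10 of the 58735 genes in the tables. RNA came from HEK293T, a line of human embryonic kidney origin with the SV40 large T antigen, and 3 libraries were made in each of 4 groups. Cells of the first group had received VGLL2-NCOA2 by transient transfection, those of the others TEAD1-NCOA2, YAP5SA, or the empty vector pcDNA3.1 as control. All groups were wild type in genotype and were grown in DMEM with FBS. VGLL2-NCOA2 joins a TEAD cofactor to the nuclear receptor coactivator NCOA2, TEAD1-NCOA2 joins the DNA-binding part of TEAD1 to the same coactivator, and YAP5SA is a YAP mutant that LATS kinases cannot inhibit. The study used these libraries to compare the transcription driven by the fusions with that driven by activated YAP. Values are FPKM, which count fragments per length of gene and per size of library. Where it could be checked, the size used did not follow the fragments assigned to genes. FPKM are averages over transfected and untransfected cells, so a small change in every cell and a large change in fewer cells cannot be told apart.

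Proteins that enter the secretory pathway fold in the ER with the help of chaperones, lectins and disulfide isomerases. When unfolded proteins build up, the membrane sensors IRE1, ATF6 and PERK are activated. IRE1 splices XBP1 mRNA into the form that encodes an active transcription factor, ATF6 is cut by Golgi proteases to release its own transcription factor, and both bind ER stress response elements in chaperone promoters. PERK slows translation and raises ATF4. HEK293T cells are not specialized secretory cells and express these genes at a basal level.

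Members were all protein-coding and were all among the 15954 genes tested, each of which reached 1 FPKM in at least 3 of the 12 libraries. Of the 10 members, HERPUD1, XBP1, CALR and SDF2L1 were lower with every plasmid than in control on the deposited scale. This held in all libraries that gave a value above 0. The share of all genes that separate in this way was not computed. By adjusted p, 25.0%, 27.9% and 30.2% of all genes tested were lower with VGLL2-NCOA2, TEAD1-NCOA2 and YAP5SA. CALR with VGLL2-NCOA2 turned to a log2 difference of 0.12 once libraries were rescaled to the same sum. The means of the other 6 members lay between 73.5% and 110% of control with the fusions. Against control as deposited, XBP1 and HERPUD1 had mean levels of 51.9% and 54.2% with VGLL2-NCOA2, 58.6% and 51.3% with TEAD1-NCOA2, and 31.3% and 38.9% with YAP5SA. Their smallest falls under other scalings were log2 differences of -0.32 and -0.27, -0.23 and -0.44, and -0.89 and -0.56 in the same order. In control cells CALR was the most abundant member at 187 ± 13.9 FPKM (SD, n = 3), followed by HSP90B1 at 151 ± 15.7, HSPA5 at 144 ± 7.53 and XBP1 at 127 ± 9.18. PDIA4 came next at 84.3 ± 1.81 FPKM, then SDF2L1 at 64.7 ± 13.0, PDIA6 at 56.3 ± 6.41, HERPUD1 at 25.9 ± 0.721, DNAJB9 at 8.59 ± 1.11 and DNAJB11 at 5.83 ± 0.446. In this order HSP90B1 and HSPA5 overlapped in range over the control libraries, as did SDF2L1 and PDIA6, and the other neighbours did not.

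**Figure D1:**
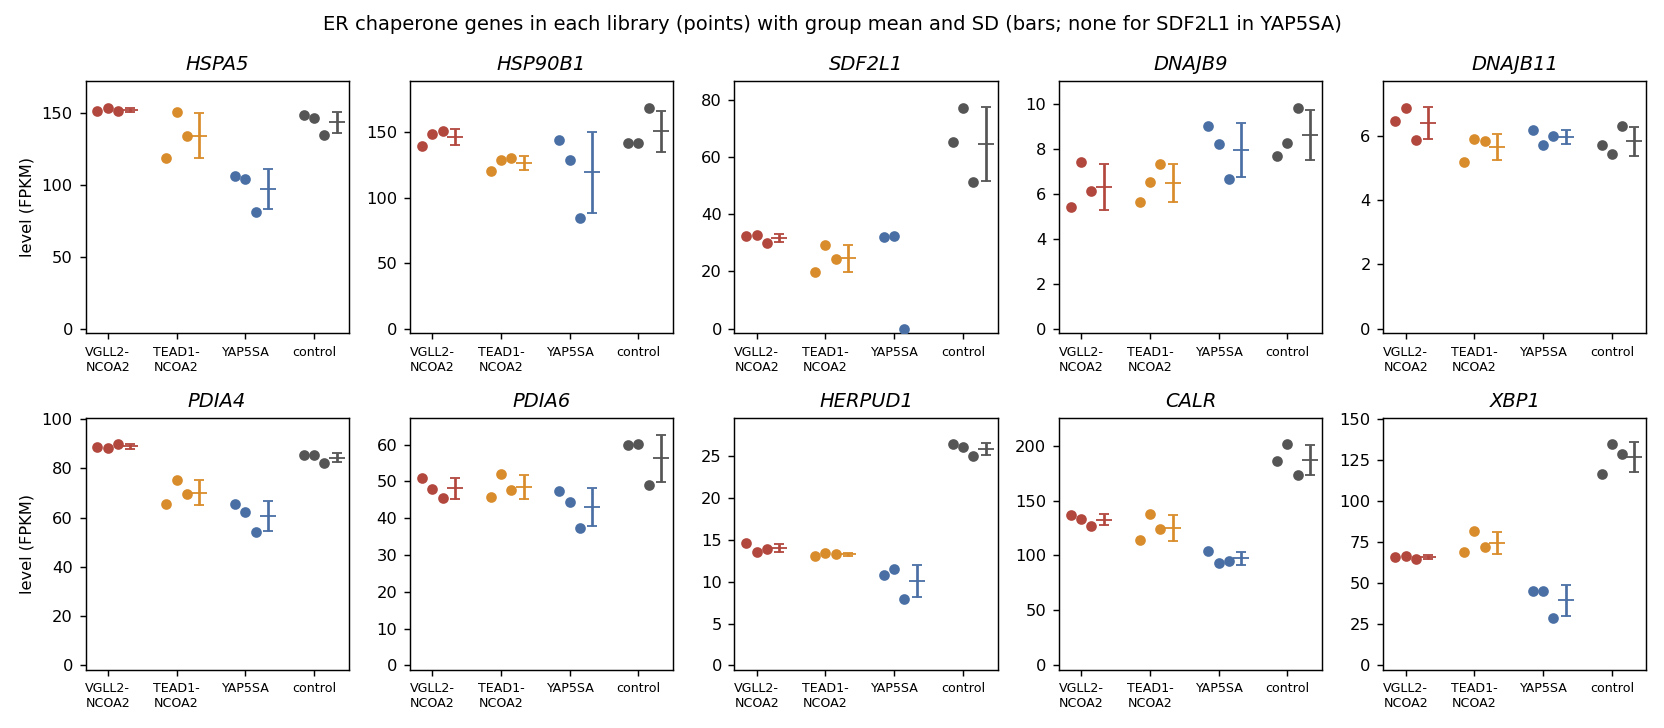
Level of each of the 10 genes in FPKM (y axis, from 0) in the 3 libraries of each group (points), with the group mean and SD beside them (bars). HERPUD1 lay between 7.90 and 14.6 FPKM in the 9 libraries of transfected groups and between 25.1 and 26.4 in control, and SDF2L1 was listed at 0 in YAP5SA replicate 3, so no mean was drawn for that group.

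Some facts of the libraries bear on the values. The plasmid genes fitted the labels, with mean levels of 257 FPKM of VGLL2 with VGLL2-NCOA2 against 1.41 in control, 52.9 FPKM of TEAD1 with TEAD1-NCOA2 against 3.23, and 4354 FPKM of YAP1 with YAP5SA against 5.33. YAP5SA replicate 3 stood apart. It listed 54.4 FPKM of VGLL2 and 141 FPKM of NCOA2, where the other YAP5SA libraries were listed at 0 for both. It also listed at 0 a total of 15 protein-coding genes that had 10 FPKM or more in both other YAP5SA libraries, SDF2L1 among them, and none of 10 housekeeping genes. The mean correlation with the other libraries of its group was 0.9152 for YAP5SA replicate 3 and 0.9467 for control replicate 3, the lowest of the 12. For the main results with YAP5SA the value without replicate 3 is therefore given too. Where none is given, the YAP5SA value includes replicate 3. Fragments could be recovered in 9 libraries, 14140996 to 15559838 a library, of which the members had 239 to 11492 each. In the YAP5SA tables no fragments could be recovered and the depth is unknown. FPKM summed to 256150 to 261017 with VGLL2-NCOA2, 253219 to 303968 with TEAD1-NCOA2 and 190861 to 252240 with YAP5SA, against 352968 to 450095 in control. Mitochondrial genes took 6.18 to 6.56%, 6.25 to 9.83% and 3.60 to 4.64% of FPKM multiplied by length in these groups, against 9.97 to 12.6% in control. All 6 markers of HEK293T cells were detected, but PAX2 averaged 0.81, 0.52 and 0.47 FPKM with the plasmids and 1.97 in control. Their summed level was 135 FPKM with VGLL2-NCOA2, 111 to 135 with TEAD1-NCOA2 and 50.5 to 88.5 with YAP5SA, against 290 to 363 in control. KRT8 was higher with VGLL2-NCOA2, at 22.1 FPKM against 13.3 in control. Endothelial markers did not reach 1 FPKM (0 of 4), 1 of 5 leukocyte, 2 of 5 fibroblast and 3 of 5 skeletal muscle markers did, and the part of any of these values in the results was not tested.

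The promoters of the members were read for the elements through which this response is known to act. Windows of 300 bases, 250 before and 50 after the start, came from RefSeq (GRCh38.p14), and all 10 members matched, with 13 windows. Both strands were searched for exact matches to the ER stress response element ERSE (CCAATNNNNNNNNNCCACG), to ERSE-II (ATTGGNCCACG), which shares the CCACG half-site, and to the XBP1 element UPRE (TGACGTGG). ERSE was found in 5 members and ERSE-II in 2, no member had both, and UPRE was found in 0. Among all 35116 windows, 0.0769% held ERSE, 0.0541% ERSE-II, 0.131% either one and 0.729% UPRE. A match of letters is a description and not a measured binding site. The windows of HERPUD1 (chr16:56931892-56932191, plus strand), XBP1 (chr22:28800520-28800819, minus strand), SDF2L1 (chr22:21642052-21642351, plus strand) and HSPA5 (chr9:125241294-125241593, minus strand) are shown. On the deposited scale the first 3 genes had the largest differences from control, while HSPA5 had levels near control with the fusions. The element is ERSE-II in HERPUD1 and SDF2L1 and ERSE in XBP1 and HSPA5. Each is written 5′ to 3′ along the gene with the matched element in capitals.
HERPUD1: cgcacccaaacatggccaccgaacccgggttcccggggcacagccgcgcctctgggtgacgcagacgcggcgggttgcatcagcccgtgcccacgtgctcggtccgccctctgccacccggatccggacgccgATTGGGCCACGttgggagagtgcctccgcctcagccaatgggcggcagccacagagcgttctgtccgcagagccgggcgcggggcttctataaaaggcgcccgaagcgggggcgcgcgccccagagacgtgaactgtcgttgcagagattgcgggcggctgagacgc
XBP1: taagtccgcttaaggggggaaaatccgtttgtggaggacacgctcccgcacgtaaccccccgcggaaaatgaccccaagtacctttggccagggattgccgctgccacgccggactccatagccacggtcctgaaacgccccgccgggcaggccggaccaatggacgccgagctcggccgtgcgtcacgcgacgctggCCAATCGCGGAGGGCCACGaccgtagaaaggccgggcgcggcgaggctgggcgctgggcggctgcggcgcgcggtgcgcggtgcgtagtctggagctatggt
SDF2L1: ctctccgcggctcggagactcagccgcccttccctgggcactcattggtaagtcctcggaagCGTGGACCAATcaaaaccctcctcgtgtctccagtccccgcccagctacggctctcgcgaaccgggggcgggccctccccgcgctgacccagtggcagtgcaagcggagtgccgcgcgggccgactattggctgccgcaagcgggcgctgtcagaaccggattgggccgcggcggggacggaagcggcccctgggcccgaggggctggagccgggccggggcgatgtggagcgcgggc
HSPA5: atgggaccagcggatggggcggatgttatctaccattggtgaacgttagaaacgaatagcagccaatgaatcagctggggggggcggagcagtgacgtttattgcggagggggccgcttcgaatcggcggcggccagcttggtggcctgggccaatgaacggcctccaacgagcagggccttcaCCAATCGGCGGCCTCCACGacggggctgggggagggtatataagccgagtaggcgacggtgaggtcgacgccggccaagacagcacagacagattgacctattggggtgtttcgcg
The element lay at bases -117 to -107 from the start in HERPUD1, -52 to -34 in XBP1, -188 to -178 in SDF2L1 (on the antisense strand, so the capitals are its reverse complement) and -66 to -48 in HSPA5. The elements of the other 3 members with a match, each written in the direction of the motif, were these.
HSP90B1, bases -194 to -176: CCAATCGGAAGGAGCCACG
HSP90B1, bases -89 to -71, antisense: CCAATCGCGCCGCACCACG
PDIA6, bases -86 to -68: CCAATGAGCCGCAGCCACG
CALR, bases -225 to -207, antisense: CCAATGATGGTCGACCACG
DNAJB9, DNAJB11 and PDIA4 had no match in these windows. HERPUD1, XBP1, SDF2L1 and CALR, which were lower than control without overlap with every plasmid on the deposited scale, all had an element. HSPA5, HSP90B1 and PDIA6, which were not, had one too. A link between element and level was not tested.

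HERPUD1 (ENSG00000051108, chromosome 16, 56932048 to 56944863) encodes an ER membrane protein with a ubiquitin-like domain that helps to assemble the machinery of ER-associated degradation. It had 14.6, 13.6 and 14.0 FPKM with VGLL2-NCOA2, 13.0, 13.4 and 13.4 with TEAD1-NCOA2, and 10.8, 11.5 and 7.90 with YAP5SA, against 26.4, 26.1 and 25.1 in control. Every library of the transfected groups lay below every control library. The difference from control, in limma on the log2(FPKM + 1) scale with its standard error, was -0.84 ± 0.11 with VGLL2-NCOA2 (Benjamini-Hochberg adjusted p = 0.000140), -0.91 ± 0.11 with TEAD1-NCOA2 (adjusted p = 0.000102) and -1.29 ± 0.11 with YAP5SA (adjusted p = 5.18e-06). Without YAP5SA replicate 3 the last was -1.14 ± 0.060 (limma adjusted p = 1.06e-06). HERPUD1 stayed lower at an adjusted p under 0.05 in 16 of 16 alternatives with VGLL2-NCOA2, 16 of 16 with TEAD1-NCOA2 and 15 of 15 with YAP5SA. No other member did so with all 3 plasmids.

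XBP1 (ENSG00000100219, chromosome 22, 28794555 to 28800597) encodes the transcription factor of the IRE1 branch. Its FPKM counts the gene as a whole and does not separate spliced from unspliced mRNA. It had 65.9, 66.8 and 64.5 FPKM with VGLL2-NCOA2, 69.1, 81.8 and 72.0 with TEAD1-NCOA2, and 45.0, 45.1 and 28.7 with YAP5SA, against 117, 135 and 129 in control. The groups with plasmids did not overlap with control, and YAP5SA lay below both fusions. XBP1 fell by 0.93 with VGLL2-NCOA2 (SE 0.16, limma adjusted p = 0.000654), by 0.76 with TEAD1-NCOA2 (SE 0.16, adjusted p = 0.00260) and by 1.68 with YAP5SA (SE 0.16, adjusted p = 9.08e-06) on the log2(FPKM + 1) scale. Without YAP5SA replicate 3 the difference with YAP5SA was -1.47 ± 0.088 (limma adjusted p = 1.87e-06). The sign was the same in all alternatives, but XBP1 with TEAD1-NCOA2 did not pass on the TPM scale (-0.25, adjusted p = 0.0827) or under quantile normalization (-0.23, adjusted p = 0.134).

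SDF2L1 (ENSG00000128228, chromosome 22, 21642261 to 21644298) encodes a small ER protein that works with DNAJB11 to keep misfolded proteins soluble. It had 32.3, 32.6 and 30.1 FPKM with VGLL2-NCOA2, 19.8, 29.4 and 24.4 with TEAD1-NCOA2, and 31.9, 32.4 and 0 with YAP5SA, against 65.3, 77.3 and 51.4 in control. The 8 libraries of transfected groups with a value above 0 reached at most 32.6 FPKM, below the lowest control library. In the file of YAP5SA replicate 3 the gene is only listed at 0, which can be a failed estimate, so no mean is given for that group. The 0 enters the spread that all groups share, and the standard error of SDF2L1 was 1.05 where those of the other members were 0.080 to 0.17. With it, SDF2L1 did not pass the test with VGLL2-NCOA2 (-0.99, limma adjusted p = 0.447) or with TEAD1-NCOA2 (-1.36, adjusted p = 0.308), and was called lower with YAP5SA (-2.65, adjusted p = 0.0466). Leaving out YAP5SA replicate 3 turned the YAP5SA difference to -0.97 ± 0.17 (limma adjusted p = 0.000935), just short of the threshold of 1 for a call, and leaving out control replicate 1, 2 or 3 instead ended the call at adjusted p of 0.0923, 0.108 and 0.0691. Leaving out YAP5SA replicate 3 and control replicate 3 gave -1.14 with VGLL2-NCOA2 (limma adjusted p = 8.60e-05), -1.51 with TEAD1-NCOA2 (adjusted p = 2.32e-05) and -1.12 with YAP5SA (adjusted p = 0.000159), and all 3 were calls. Control replicate 3 had the lowest control level, at 51.4 FPKM, so leaving it out also raised the control mean and widened these differences. SDF2L1 had the highest GC content of the members at 65.5%, and after a correction for length and GC its difference was -0.45 for VGLL2-NCOA2 and -0.67 for TEAD1-NCOA2.

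CALR (ENSG00000179218, chromosome 19, 12938578 to 12944489) encodes calreticulin, a lectin chaperone that binds calcium and glycoproteins. It had 137, 133 and 127 FPKM with VGLL2-NCOA2, 114, 137 and 125 with TEAD1-NCOA2, and 104, 93.1 and 95.2 with YAP5SA, against 186, 201 and 173 in control. The plasmid groups and control did not overlap. CALR fell by 0.49 with VGLL2-NCOA2 (SE 0.11, limma adjusted p = 0.00274), although this turned to 0.12 on the TPM scale and under quantile normalization. It fell by 0.58 with TEAD1-NCOA2 (SE 0.11, adjusted p = 0.00127) and by 0.93 with YAP5SA (SE 0.11, adjusted p = 3.12e-05), which went to -0.061 and -0.13 on the TPM scale and to -0.032 and -0.015 under quantile normalization. After the length and GC correction CALR was at -0.13 with VGLL2-NCOA2 and -0.16 with TEAD1-NCOA2 and did not pass. Without YAP5SA replicate 3 the YAP5SA difference was -0.91 (limma adjusted p = 4.39e-05).

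HSPA5 and HSP90B1 encode the main soluble chaperones of the ER, the Hsp70 protein BiP and the Hsp90 of this compartment. HSPA5 (ENSG00000044574, chromosome 9, 125234853 to 125241330) had 152, 154 and 151 FPKM with VGLL2-NCOA2, 119, 151 and 134 with TEAD1-NCOA2, and 106, 104 and 80.9 with YAP5SA, against 149, 147 and 135 in control. The YAP5SA libraries were lowest, and the TEAD1-NCOA2 libraries overlapped with control. On the deposited scale HSPA5 did not pass the test with VGLL2-NCOA2 (0.085, 95% interval -0.20 to 0.37) or with TEAD1-NCOA2 (-0.10, 95% interval -0.38 to 0.18). Over the alternatives it was at 0.041 to 0.71 with VGLL2-NCOA2 and -0.18 to 0.43 with TEAD1-NCOA2, highest under quantile normalization. It fell by 0.57 with YAP5SA (SE 0.13, limma adjusted p = 0.00269), and by 0.45 without replicate 3 (adjusted p = 0.00288), but turned to 0.23 on the TPM scale and 0.34 under quantile normalization. HSP90B1 (ENSG00000166598, chromosome 12, 103930107 to 103953645) had 139, 149 and 151 FPKM with VGLL2-NCOA2, 120.3, 129 and 131 with TEAD1-NCOA2, and 144, 129 and 84.9 with YAP5SA, against 142, 142 and 169 in control. Only the TEAD1-NCOA2 libraries lay wholly below control, and YAP5SA replicate 3 was far below the other YAP5SA libraries. HSP90B1 passed the test in none of the comparisons with control, with differences of -0.039, -0.25 and -0.36 for VGLL2-NCOA2, TEAD1-NCOA2 and YAP5SA, and -0.14 for YAP5SA without replicate 3. Without YAP5SA replicate 1 it passed at -0.52 (limma adjusted p = 0.0247).

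PDIA4 and PDIA6 encode disulfide isomerases, which make and rearrange the disulfide bonds of client proteins. PDIA4 (ENSG00000155660, chromosome 7, 149003062 to 149028641) had 88.8, 88.1 and 89.8 FPKM with VGLL2-NCOA2, 65.3, 75.4 and 69.5 with TEAD1-NCOA2, and 65.7, 62.3 and 54.1 with YAP5SA, against 85.4, 85.2 and 82.2 in control. The VGLL2-NCOA2 libraries all lay above control and those of the other plasmids below it. With VGLL2-NCOA2 PDIA4 was at 0.076 and did not pass, and it was at 0.059 to 0.69 over the alternatives. PDIA4 fell by 0.26 with TEAD1-NCOA2 (SE 0.094, limma adjusted p = 0.0374), although this turned to 0.25 on the TPM scale, 0.18 under quantile normalization and 0.089 after the length and GC correction. It did not pass either, at adjusted p of 0.0506 to 0.133, without TEAD1-NCOA2 replicate 1 or 3 or any 1 of the control libraries. It fell by 0.47 with YAP5SA (SE 0.094, limma adjusted p = 0.00127), and by 0.39 without replicate 3 (adjusted p = 0.00107), but turned to 0.33 on the TPM scale and under quantile normalization. PDIA6 (ENSG00000143870, chromosome 2, 10783391 to 10837977) had 50.9, 47.9 and 45.4 FPKM with VGLL2-NCOA2, 45.8, 52.1 and 47.7 with TEAD1-NCOA2, and 47.5, 44.3 and 37.4 with YAP5SA, against 60.0, 60.1 and 48.9 in control. Control replicate 3 lay within the range of both fusions. PDIA6 fell by 0.38 with YAP5SA (SE 0.11, limma adjusted p = 0.0141), and by 0.28 without replicate 3 (adjusted p = 0.0354), but turned to 0.42 on the TPM scale and 0.26 under quantile normalization. It was at -0.33 (limma adjusted p = 0.0524) without control replicate 2. With the fusions it did not pass lower, except without control replicate 3. There it was at -0.32 with VGLL2-NCOA2 (limma adjusted p = 0.0379) and -0.30 with TEAD1-NCOA2 (adjusted p = 0.0495). On the TPM scale PDIA6 turned to 0.39 with VGLL2-NCOA2 and 0.31 with TEAD1-NCOA2.

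DNAJB9 and DNAJB11 encode J-domain proteins that bring clients to BiP and stimulate its ATPase. They were the least abundant members. DNAJB9 (ENSG00000128590, chromosome 7, 108569568 to 108574850) had 5.39, 7.41 and 6.14 FPKM with VGLL2-NCOA2, 5.63, 6.52 and 7.31 with TEAD1-NCOA2, and 9.01, 8.22 and 6.66 with YAP5SA, against 7.68, 8.28 and 9.83 in control. The fusion libraries lay below control by small steps, and the YAP5SA libraries overlapped with it. DNAJB9 fell by 0.39 with VGLL2-NCOA2 (SE 0.14, limma adjusted p = 0.0347), although this turned to 0.16 on the TPM scale, and was at -0.36 with TEAD1-NCOA2 (adjusted p = 0.0561). The difference with VGLL2-NCOA2 did not pass without VGLL2-NCOA2 replicate 1 or 3 or control replicate 2 or 3, at adjusted p of 0.0625 to 0.129, and the TEAD1-NCOA2 difference passed without TEAD1-NCOA2 replicate 3 or control replicate 1. DNAJB11 (ENSG00000090520, chromosome 3, 186567403 to 186585800) had 5.19 to 6.89 FPKM over all 12 libraries. All plasmid groups overlapped with control as deposited. There the 95% intervals of the differences were -0.060 to 0.30 with VGLL2-NCOA2, -0.22 to 0.14 with TEAD1-NCOA2 and -0.15 to 0.21 with YAP5SA. Over the alternatives the differences were -0.19 to 0.71, -0.23 to 0.45 and -0.19 to 0.81. The highest came on the TPM scale, where the medians of all genes were 0.57, 0.35 and 0.77. Reads of THAP5 and PNPLA8, which overlap DNAJB9 on the opposite strand, and of TBCCD1, which overlaps DNAJB11, cannot be told apart from those of the members, and these neighbours reached 8.77, 6.45 and 5.28 FPKM.

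**Figure D2:**
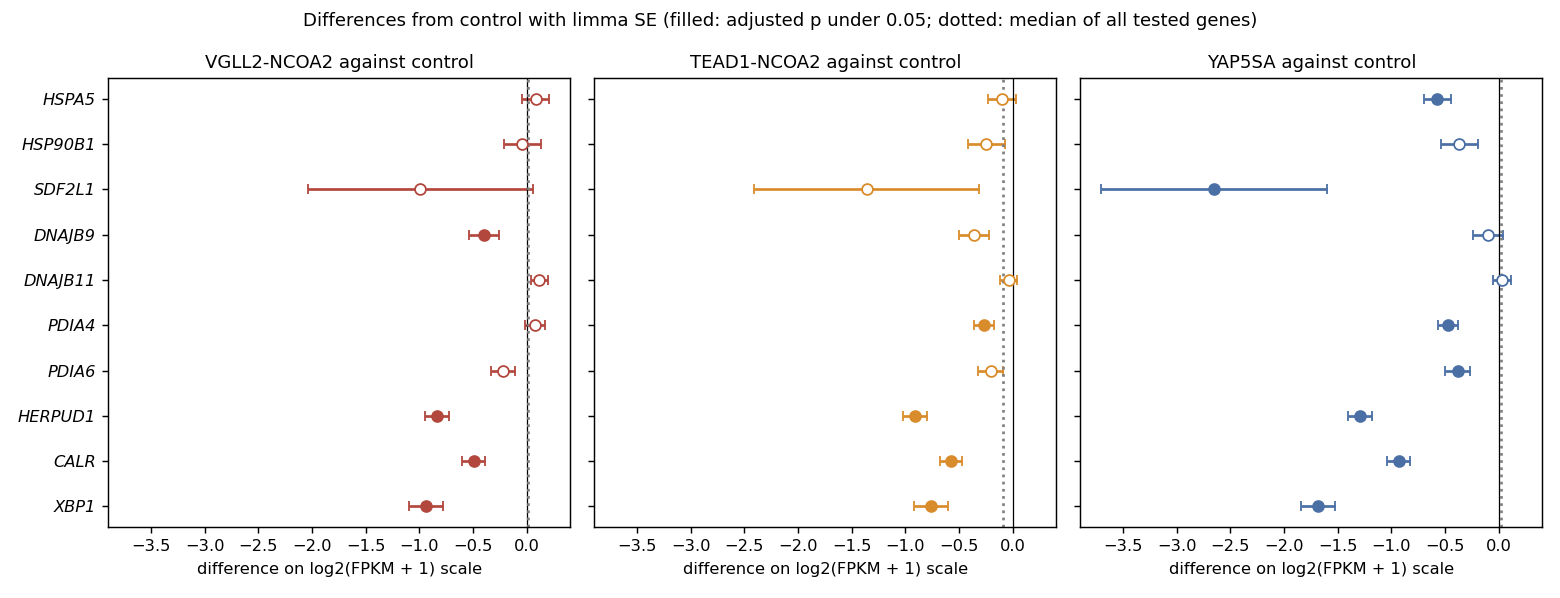
Difference of each gene from control on the log2(FPKM + 1) scale (x axis) in 3 comparisons, with the limma standard error (bars). Filled points have an adjusted p under 0.05, and the dotted line is the median of all tested genes at 0.013, -0.089 and 0.026 from left to right. HERPUD1, XBP1 and CALR lie left of the line in each comparison on this deposited scale (CALR with VGLL2-NCOA2 turned to 0.12 on the TPM scale), and SDF2L1 has the widest error at 1.05.

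A gene was called when its adjusted p was under 0.05 and its log2 difference was over 1 in either direction. With YAP5SA 3 of the 10 members were called lower (SDF2L1, HERPUD1 and XBP1), where 10.0% of all genes tested were called lower. Without replicate 3 it was 2, HERPUD1 and XBP1. With either fusion limma called 0 members, where 5.03% and 6.51% of all genes were called lower. At an unadjusted p under 0.05 there were 4 members with VGLL2-NCOA2 and 5 with TEAD1-NCOA2, for which no share of all genes was computed. Limma-voom on recovered fragments called 0 and 1. By adjusted p alone, 4 of 10 members were lower with VGLL2-NCOA2, where 25.0% of all genes were, 4 of 10 with TEAD1-NCOA2, where 27.9% were, and 7 of 10 with YAP5SA, where 30.2% were. No member was higher in these tests on the deposited scale. By limma-voom on recovered fragments 4 members passed higher and 4 lower with VGLL2-NCOA2, and 0 higher and 4 lower with TEAD1-NCOA2. The medians of the members were -0.31, -0.31 and -0.52 in the same order, beside 0.013, -0.089 and 0.026 over all genes tested. Without YAP5SA replicate 3 the median with YAP5SA was -0.42, or -0.47 relative to the median of all genes. The 3 comparisons share the control libraries and are not independent.

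These counts depend on how libraries are scaled. Rescaling each library to the same sum (TPM scale) moved the median of all genes to 0.57 in the VGLL2-NCOA2 comparison, 0.35 in that of TEAD1-NCOA2 and 0.77 in that of YAP5SA, and with it the differences of single genes. On that scale 2, 1 and 2 members passed lower and 5, 3 and 6 passed higher. The share of all genes that passed was computed on the deposited scale alone, so the counts on other scales have none beside them. The medians of the members turned to 0.27, 0.18 and 0.28 on the TPM scale, which is -0.30, -0.18 and -0.49 relative to the median of all genes. Under quantile normalization they were 0.094, 0.0014 and 0.00074, or 0.11, -0.011 and -0.0049 relative to it. With that normalization 3, 1 and 2 members passed lower and 3, 1 and 4 passed higher. Relative to the median of all genes, HERPUD1 was at -0.84, -0.79 and -1.33 on the TPM scale, and at -0.85, -0.82 and -1.32 on the deposited scale. XBP1 was at -0.90, -0.61 and -1.66 on the TPM scale, and at -0.95, -0.67 and -1.71 on the deposited scale. By limma-voom on recovered fragments, HERPUD1 was at -0.91 and -0.85 with the fusions and XBP1 at -0.97 and -0.66. These are relative to medians of all genes of 0.31 and 0.15. Quantile normalization, which forces the same distribution on all libraries, moved the abundant members most, and put XBP1 at -0.30, -0.25 and -0.93 and HERPUD1 at -0.56, -0.62 and -1.02 relative to the median. HSPA5 relative to the median was 0.072 with VGLL2-NCOA2 and -0.60 with YAP5SA as deposited, and 0.73 and 0.34 under quantile normalization.

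**Figure D3:**
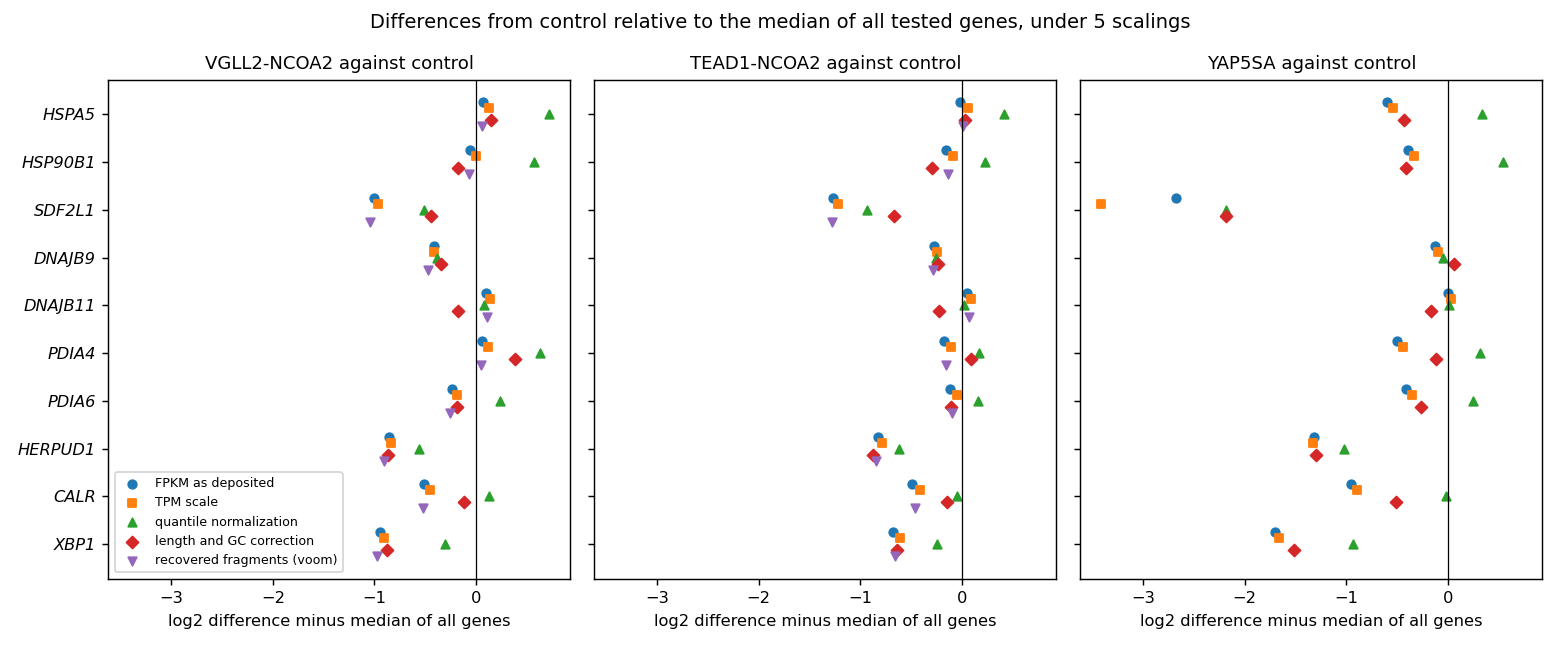
Difference of each gene from control minus the median difference of all tested genes (x axis, log2) under 5 scalings (symbols), with recovered fragments only for the fusions. HERPUD1, XBP1 and SDF2L1 lie below 0 under every scaling shown, and SDF2L1 with YAP5SA includes the 0 of replicate 3. HSPA5 and PDIA4 lie above 0 with VGLL2-NCOA2 and on both sides with TEAD1-NCOA2 and YAP5SA. With YAP5SA HSPA5 is at -0.60 as deposited and 0.34 under quantile normalization.

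A ratio of members within a library does not change with the scaling of that library, and HSPA5 was taken as the denominator after the data had been seen. HERPUD1 was 0.0922 ± 0.0040 of HSPA5 in VGLL2-NCOA2 libraries, 0.0996 ± 0.010 in TEAD1-NCOA2 libraries and 0.103 ± 0.0066 in YAP5SA libraries, against 0.180 ± 0.0046 in control (SD, n = 3). XBP1 was 0.432 ± 0.0046, 0.554 ± 0.024 and 0.404 ± 0.043 of HSPA5 in the same groups, against 0.884 ± 0.090 in control. Both ratios were lower in each of the 9 libraries of transfected groups than in each control library. On the log2 scale the differences of the ratio were -0.97, -0.86 and -0.80 for HERPUD1 and -1.03, -0.67 and -1.13 for XBP1. CALR to HSPA5 differed by -0.58, -0.48 and -0.36, also without overlap. SDF2L1 to HSPA5 was 0.199 to 0.213 with VGLL2-NCOA2, 0.167 to 0.195 with TEAD1-NCOA2, and 0.301 and 0.312 in YAP5SA replicates 1 and 2, against 0.380 to 0.526 in control. PDIA4 to HSPA5 was at 0.584 ± 0.011, 0.523 ± 0.024 and 0.629 ± 0.036 against 0.587 ± 0.019 in control. The 2-sided exact permutation p was 0.1 for HERPUD1, XBP1 and CALR in each comparison, the smallest that 3 libraries against 3 allow, and adjusted over 27 such tests it was 0.159. DNAJB9, DNAJB11 and PDIA6 to HSPA5 were above control in all 3 YAP5SA libraries, at log2 differences of 0.46, 0.61 and 0.19 (exact p = 0.1 each, adjusted p = 0.159), in the group where HSPA5 itself was lowest.

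**Figure D4:**
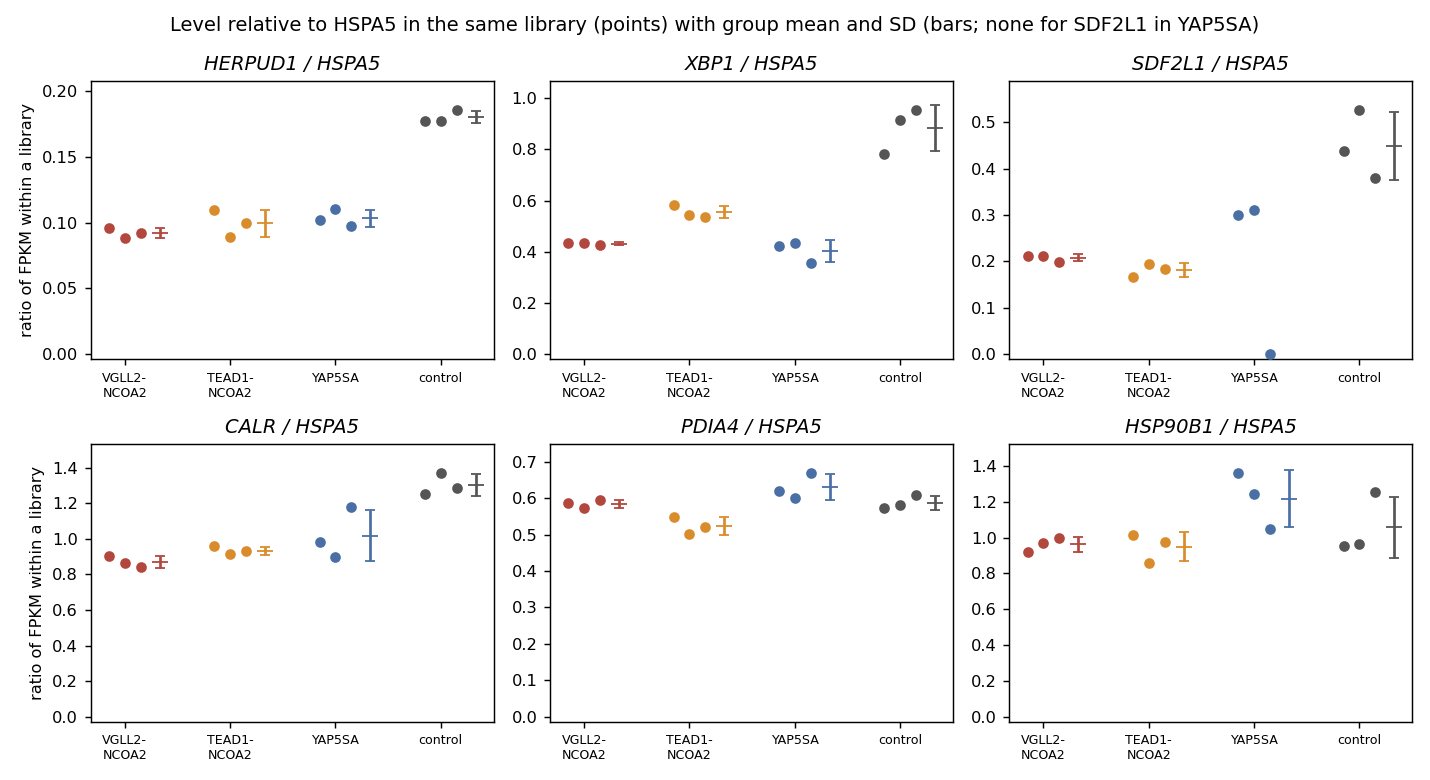
FPKM of 6 members divided by that of HSPA5 in the same library (y axis, from 0), with libraries as points and group mean and SD as bars. HERPUD1 and XBP1 are at 0.180 and 0.884 of HSPA5 in control and lower in all 9 libraries of transfected groups, and PDIA4 stays between 0.523 and 0.629 in the group means.

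Between plasmids, several members were higher with the fusions than with YAP5SA. At an adjusted p under 0.05 in limma, 5 of 10 were higher with VGLL2-NCOA2 than with YAP5SA (HSPA5, PDIA4, HERPUD1, CALR and XBP1), where 16.0% of all genes were, and 0 were lower. On the TPM scale 3 were higher and 1 lower. With TEAD1-NCOA2 against YAP5SA it was 4 of 10 (HSPA5, HERPUD1, CALR and XBP1), where 14.0% of all genes were higher. On the TPM scale 1 was higher and 1 lower. No share of all genes was computed for these counts on the TPM scale. PDIA4 was the only member higher with VGLL2-NCOA2 than with TEAD1-NCOA2, 1 of 10 where 15.3% of all genes were. No member was called in these comparisons. SDF2L1 was at 1.66 with VGLL2-NCOA2 against YAP5SA and 1.29 with TEAD1-NCOA2 against YAP5SA but did not pass (limma adjusted p = 0.260 and 0.359), and YAP5SA replicate 3 at 0 enters both. Among members that passed, the largest difference was XBP1 with TEAD1-NCOA2 against YAP5SA at 0.92 ± 0.16 (adjusted p = 0.00125), with 69.1 to 81.8 FPKM with TEAD1-NCOA2 and 28.7 to 45.1 with YAP5SA. Without YAP5SA replicate 3 it was 0.71 (limma adjusted p = 0.000286). Without that library all of the 5 and 4 differences from YAP5SA kept an adjusted p under 0.05. The count of 4 was 1 without TEAD1-NCOA2 replicate 2 and 2 without TEAD1-NCOA2 replicate 3.

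The members were set beside 6 other lists of genes around this response. In the list of 18 other ER chaperones and folding enzymes, 6 passed higher and 3 lower with VGLL2-NCOA2, 6 higher and 5 lower with TEAD1-NCOA2, and 6 higher and 3 lower with YAP5SA. The medians were 0.17, 0.083 and -0.050, and the single call was P4HB, the archetypal protein disulfide isomerase, at -1.02 ± 0.094 with YAP5SA (limma adjusted p = 8.52e-06). It had 60.8 FPKM with YAP5SA, against 124 in control. Of the 6 UPR sensors and their proteases, 4 passed higher and 1 lower with VGLL2-NCOA2, 4 higher and 0 lower with TEAD1-NCOA2, and 5 higher and 1 lower with YAP5SA, and the only call was ATF6B, a paralog of ATF6, which was lower with YAP5SA (-1.38 ± 0.31, limma adjusted p = 0.00282). Among 14 genes of ER-associated degradation, the mannosidase-like EDEM3 was called higher with VGLL2-NCOA2 (1.24 ± 0.10) and YAP5SA (1.40 ± 0.10), and SEL1L, the partner of the ligase HRD1, with TEAD1-NCOA2 (1.14 ± 0.075) and YAP5SA (1.40 ± 0.075). EDEM2, which starts the trimming of glycoproteins for degradation, was called lower with YAP5SA (-1.35 ± 0.14). In that list 3 genes passed higher and 3 lower with VGLL2-NCOA2, 5 and 3 with TEAD1-NCOA2, and 5 and 5 with YAP5SA. Each of these called genes kept its sign under all scalings, but the lower calls ended on the TPM scale, where P4HB was at -0.22, ATF6B at -0.63 and EDEM2 at -0.63, and P4HB was at -0.14 under quantile normalization. After the length and GC correction EDEM3 was at 0.81 with VGLL2-NCOA2, and SEL1L at 0.77 with TEAD1-NCOA2 and 0.92 with YAP5SA, under the threshold for a call. With YAP5SA P4HB at -0.82, ATF6B at -0.99 and EDEM2 at -0.98 were also short of it. The medians of these lists moved up on the TPM scale. Without YAP5SA replicate 3, these lists had 5 genes higher and 2 lower, 5 and 1, and 5 and 5 by adjusted p with YAP5SA, in the order given.

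The PERK-ATF4 list had the lowest median of all lists in each comparison with control. Of its 12 genes, 8 passed lower and 2 higher with VGLL2-NCOA2, 6 lower and 0 higher with TEAD1-NCOA2, and 11 lower and 0 higher with YAP5SA, with medians of -0.62, -0.57 and -1.43. On the TPM scale the counts were 4 lower and 3 higher, 3 lower and 1 higher, and 8 lower and 1 higher, and without YAP5SA replicate 3 it was again 11 lower with YAP5SA. CHAC1, a glutathione-degrading enzyme induced by ATF4, averaged 16.9 FPKM with VGLL2-NCOA2, 15.2 FPKM with TEAD1-NCOA2 and 1.72 FPKM with YAP5SA, against 46.4 in control. Its differences were -1.41 ± 0.28, -1.55 ± 0.28 and -4.24 ± 0.28. TRIB3, a pseudokinase that ATF4 and DDIT3 induce, was called lower with VGLL2-NCOA2 (-1.98 ± 0.14) and YAP5SA (-2.36 ± 0.14), and PSAT1, an enzyme of serine synthesis, with YAP5SA (-2.29 ± 0.21). ATF4 itself averaged 388 FPKM with VGLL2-NCOA2, 365 FPKM with TEAD1-NCOA2 and 189 FPKM with YAP5SA, against 477 in control, and was called lower with YAP5SA (-1.36 ± 0.17). DDIT4, an inhibitor of mTORC1 signalling, was called lower with all 3 plasmids as deposited (-1.52, -1.08 and -1.17, SE 0.22 each). It was called with none of them on the TPM scale (-0.92, -0.57 and -0.37) or under quantile normalization (-0.90, -0.52 and -0.35). ASNS, asparagine synthetase, was the single gene of the list called higher, with VGLL2-NCOA2 (1.07 ± 0.16), and it and ATF4 were picked after the values had been seen. The called genes of this list kept their sign under all scalings, but not all calls were kept. Calls lower with VGLL2-NCOA2 went to 1 on the TPM scale and 2 under quantile normalization in place of 5, those with TEAD1-NCOA2 to 1 and 1 in place of 2, and those with YAP5SA to 5 and 6 in place of 10. After the length and GC correction the calls lower were 4, 0 and 7 in the same order. With YAP5SA ATF4 was at -0.18 under quantile normalization.

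Of 14 genes of ER translocation and export, SSR2, a subunit of the translocon-associated protein complex, was called lower with VGLL2-NCOA2 (-1.10 ± 0.26) and YAP5SA (-1.01 ± 0.26), and SSR3 of the same complex with YAP5SA (-1.19 ± 0.16). On the TPM scale SSR2 was at -0.53 with VGLL2-NCOA2 and -0.24 with YAP5SA, and SSR3 at -0.41 with YAP5SA, short of a call. The list had 9 genes lower and 0 higher by adjusted p with YAP5SA, and 1 lower and 3 higher on the TPM scale. Without YAP5SA replicate 3 it had 0 calls and 8 genes lower by adjusted p. Among 10 cytosolic heat shock chaperones, which answer to unfolded proteins outside the ER, HSPB1 was called lower with VGLL2-NCOA2 (-1.02 ± 0.38), TEAD1-NCOA2 (-1.26 ± 0.38) and YAP5SA (-1.58 ± 0.38). On the TPM scale HSPB1 was at -0.42, -0.76 and -0.80 and was not called, and after the length and GC correction it was at -0.37 and -0.50 with the fusions and did not pass. HSPD1, which works in mitochondria, and HSP90AB1 were called lower with YAP5SA (-1.16 ± 0.21 and -1.02 ± 0.16). Neither was called on the TPM scale (-0.36 and -0.21). Under quantile normalization HSPD1 was at -0.16 and HSP90AB1 turned to 0.22. Without YAP5SA replicate 3 the list had 1 call in place of 3. Exact ERSE or ERSE-II matches were found in 4 of the 17 other ER chaperones that had a promoter window (CANX, CRELD2, ERO1B and HYOU1, named for that match) and in 0 of the windows of the other 5 lists.

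**Figure D5:**
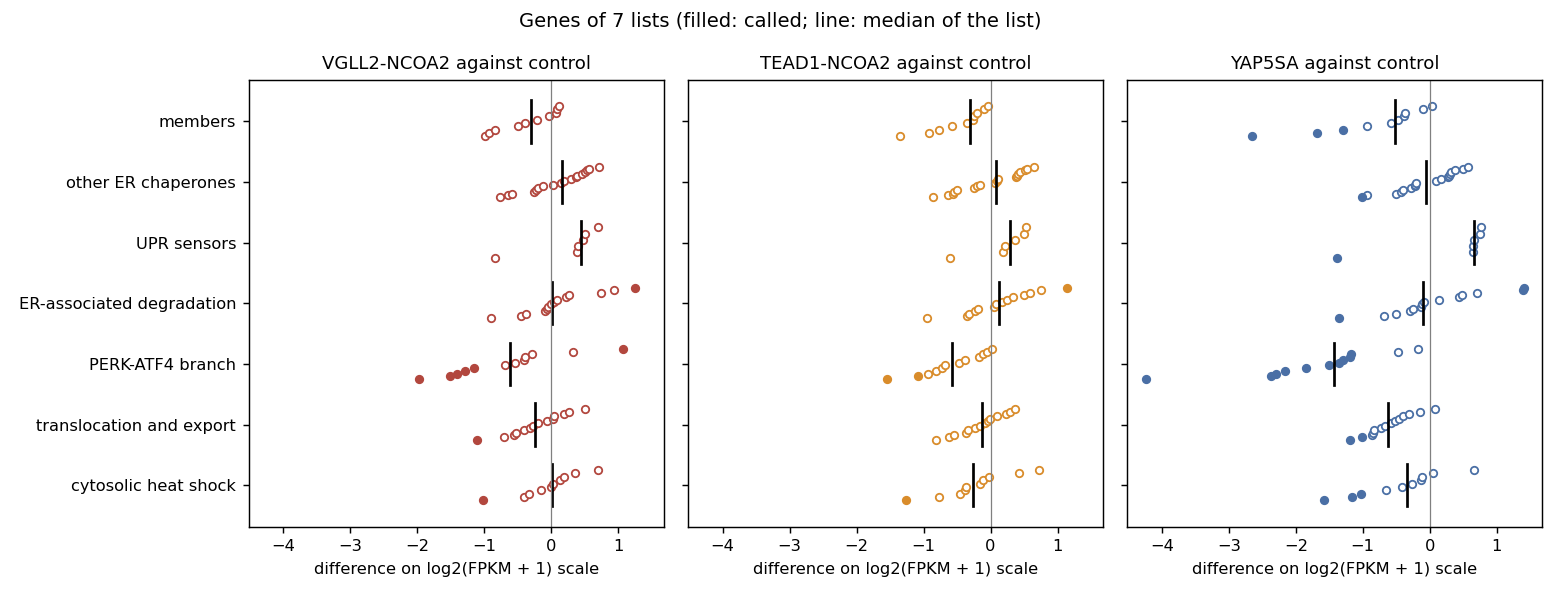
Difference from control on the log2(FPKM + 1) scale (x axis) of each tested gene of 7 lists, with called genes filled and the median of each list as a line. The PERK-ATF4 list has the lowest median with YAP5SA at -1.43, and the members have medians of -0.31, -0.31 and -0.52 from left to right.

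Over the 12 libraries, the profiles most like the mean standardized profile of the members were those of SPC24 (Pearson r = 0.972), ETFA (0.968), UCHL1 (0.967), MPC1 (0.963) and PRDX1 (0.962), out of 7331 protein-coding genes. The coefficients describe 12 libraries that share groups and scaling, and no test was made. SPC24, a kinetochore component, averaged 17.3 FPKM with VGLL2-NCOA2, 13.6 FPKM with TEAD1-NCOA2 and 8.51 FPKM with YAP5SA, against 27.6 in control. PRDX1, a peroxiredoxin, averaged 121, 94.2 and 75.4 FPKM in the same groups, against 163 in control.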

How the data were processed

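RNA of 12 libraries from HEK293T cells was analysed. The authors deposited FPKM per gene, 1 table per group, and the tables may have been normalized separately. For the aligner, the counting tool and its strand setting the sources used here give nothing. Among builds, GRCm38 and mm10, both of the mouse, stand in the submitters' processing notes, but all 58735 genes matched the human GENCODE release 29 in start and end. Genes that reached 1 FPKM in 3 or more libraries were taken as log2(FPKM + 1), a scale that understates changes of low genes, and fitted in limma 3.58.1 (R 4.3.3) with 1 mean per group over all 12 libraries, no replicate block and Benjamini-Hochberg adjustment over 15954 genes, 2-sided. The fit was tested on simulated data. Whole fragments (within 0.05, up to 20 fragments) were recovered in 100% of low values in 9 libraries, but in 9.46 to 11.9% with YAP5SA, where chance gives 10%. GC content was computed for 58676 genes from the longest transcript. Ratios used exact permutation tests (scipy 1.17.1).

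Members, lists and alternatives were chosen with earlier results of these data known. Named genes were the members, up to 3 called genes of each other list with the largest difference in a comparison with control, the 5 protein-coding genes of mean FPKM of at least 5 most like the members in profile, and the transfected genes. Alternatives were a pseudocount of 0.1, a minimum of 5 FPKM or none, TPM scale, quantile normalization, a length and GC correction, the compared groups alone, a replicate block, leaving out libraries, and limma-voom on recovered fragments. The ratio to HSPA5 and the difference relative to the median of all genes were added after seeing the data.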

Additional observations from a re-analysis of the deposited data

Results flagged for a closer look

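Effects of 2 plasmids relative to the same control differed for 10 results, by limma tests of the difference between the plasmids on the log2(FPKM + 1) scale. In each of them the 3 libraries of the first group all lay above the 3 of the second. The 10 results were picked by passing these tests on the same libraries, so this separation is no further support. The share of all genes that separate in this way was not computed. PDIA4 was higher with VGLL2-NCOA2 than with TEAD1-NCOA2 by 0.34 (adjusted p = 0.0281). With VGLL2-NCOA2 against YAP5SA the differences were 0.66 for HSPA5 (limma adjusted p = 0.00326), 0.55 for PDIA4 (0.00152), 0.46 for HERPUD1 (0.0102), 0.44 for CALR (0.00988) and 0.75 for XBP1 (0.00513). With TEAD1-NCOA2 against YAP5SA they were 0.47 for HSPA5 (limma adjusted p = 0.0141), 0.38 for HERPUD1 (0.0190), 0.36 for CALR (0.0214) and 0.92 for XBP1 (0.00125). PDIA4 with VGLL2-NCOA2 against TEAD1-NCOA2 was at 0.29 to 0.35 but did not pass, at adjusted p of 0.0803 to 0.0931, without any 1 of the VGLL2-NCOA2 libraries or TEAD1-NCOA2 replicate 1 or 3. With TEAD1-NCOA2 against YAP5SA HERPUD1 and CALR did not pass without TEAD1-NCOA2 replicate 2 or 3, nor HSPA5 without TEAD1-NCOA2 replicate 2, nor CALR without YAP5SA replicate 2 (adjusted p of 0.0556 to 0.0842). The depth of the YAP5SA libraries is unknown, and its part in these differences was not tested.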

How the results depend on the processing

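Members called with VGLL2-NCOA2 against control changed from 0 to 1 (SDF2L1) without control replicate 3 and YAP5SA replicate 3, and with TEAD1-NCOA2 from 0 to 1 (SDF2L1) in the same fit, in the compared groups alone and in limma-voom. With YAP5SA the 3 calls became 0 on the TPM scale and 1 (HERPUD1) under quantile normalization, and 2 to 3 when single libraries were left out. They were 2 with a pseudocount of 0.1, with no filter, after the length and GC correction and in the compared groups alone, and SDF2L1 with YAP5SA passed lower in 6 of 15 alternatives. With TEAD1-NCOA2 against YAP5SA the count was 0 to 1 (XBP1, without YAP5SA replicate 1 or 2). The causes were not tested beyond the constructions named.

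Signs turned as follows, in log2 against control. With VGLL2-NCOA2 the TPM scale gave 0.57 for HSP90B1, 0.16 for DNAJB9, 0.39 for PDIA6 and 0.12 for CALR; quantile normalization gave 0.56 for HSP90B1, 0.22 for PDIA6 and 0.12 for CALR; limma-voom gave 0.25 for HSP90B1 and 0.063 for PDIA6; and the GC correction gave -0.19 for DNAJB11. With TEAD1-NCOA2 the TPM scale gave 0.42 for HSPA5, 0.27 for HSP90B1, 0.11 for DNAJB9, 0.45 for DNAJB11, 0.25 for PDIA4 and 0.31 for PDIA6. Quantile normalization gave 0.43 for HSPA5, 0.25 for HSP90B1, 0.034 for DNAJB11, 0.18 for PDIA4 and 0.17 for PDIA6, limma-voom 0.16 for HSPA5, 0.017 for HSP90B1, 0.22 for DNAJB11 and 0.054 for PDIA6, and the GC correction 0.023 for HSPA5 and 0.089 for PDIA4. With YAP5SA the TPM scale gave 0.23 for HSPA5, 0.44 for HSP90B1, 0.67 for DNAJB9, 0.33 for PDIA4 and 0.42 for PDIA6, quantile normalization 0.34 for HSPA5, 0.55 for HSP90B1, 0.33 for PDIA4 and 0.26 for PDIA6, and the GC correction 0.040 for DNAJB9 and -0.19 for DNAJB11. CALR with TEAD1-NCOA2 against YAP5SA was -0.017 under quantile normalization. Without control replicate 3 and YAP5SA replicate 3, HSP90B1 was 0.045 with VGLL2-NCOA2, DNAJB11 0.012 with TEAD1-NCOA2 and DNAJB9 0.099 with YAP5SA. Leaving out 1 library gave -0.081 to 0.045 for HSP90B1 with VGLL2-NCOA2, -0.079 to 0.013 for DNAJB11 with TEAD1-NCOA2, and -0.19 to 0.0081 for DNAJB9 and -0.0098 to 0.082 for DNAJB11 with YAP5SA.

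Of all genes, 1807, 1500 and 3264 were called with VGLL2-NCOA2, TEAD1-NCOA2 and YAP5SA against control, with 1005, 461 and 1667 higher. The TPM scale gave 4629, 3145 and 6633, with 4424, 2575 and 6201 higher, and a minimum of 5 FPKM 1174, 972 and 2077, with 524, 287 and 735 higher. A pseudocount of 0.1 gave 3133 and 2800 with the fusions, limma-voom 3798 and 2938, with 3206 and 1888 higher, and the GC correction 1138 and 936, with 613 and 414 higher.

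The replicate block changed no count of called members (0, 0 and 3 against control). Libraries of the same number in different groups deviated with correlations of -0.049 to 0.27 over 18 pairs, and those of other numbers with -0.29 to 0.19 over 36, so the numbers were not taken to pair the samples.

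Replicates are separate libraries, and separate transfections are not stated, so p-values measure only the spread between libraries, technical or not. Replicate pairs differed by more than counting noise (chi-square per degree of freedom 2.96 to 51.4 in the 9 libraries with fragments). With the strand setting unknown, reads of overlapping genes cannot be told apart, namely C12orf73 with HSP90B1, THAP5 and PNPLA8 with DNAJB9, TBCCD1 with DNAJB11 and ATP6V1C2 with PDIA6, nor can those of the pseudogenes XBP1P1 and HSP90B2P.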
